A study of Mus musculus with 12 samples.

Results

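The COMMD family consists of 10 genes, Commd1 to Commd10, and all 10 were found in the mouse RefSeq annotation among 21887 protein-coding genes. A peak was counted for a COMMD gene when its summit lay within 1000 bp of either end of the gene or inside it. The family was chosen from these USF2 peak lists, so the calls and peak heights at its members are described here and carry no test. USF2 is a leucine zipper transcription factor that binds E-boxes, short DNA motifs with the core CACGTG. It was precipitated from wild-type mouse embryonic fibroblasts (MEFs, cells cultured from embryos) and the bound DNA was sequenced (ChIP-seq). The groups were glucose-starved wild-type cells and wild-type cells in normal culture, with 2 libraries each. They are called starved 1, starved 2, normal 1 and normal 2 below. The labels give neither the length of the starvation nor the number of cultures behind the libraries, and differences between replicates may be technical. Peak lists do not measure expression, and the fibroblast identity was not checked against marker genes.

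COMMD proteins share a COMM domain at their carboxy terminus and assemble with the scaffold proteins CCDC22 and CCDC93 into the CCC complex. Together with retriever (VPS35L, VPS26C and VPS29) and DENND10 this forms Commander, a machine on endosomes. Commander returns membrane proteins to the cell surface, among them lipoprotein receptors and copper transporters, and spares them from degradation in lysosomes.

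The lists held 825 and 1186 peaks in starved and 1645 and 2124 peaks in normal libraries. The narrowest peak measured 306 bp in both starved lists and 152 bp in both normal lists. The lowest local background was 0.428 and 0.434 reads per kb in starved 1 and 2, against 0.644 in both normal lists. This is only a rough guide to depth, and read totals are not reported here. Widths and lowest background therefore differed together with the condition, and their part in any difference between conditions cannot be told apart from starvation. A typical summit carried few reads, with medians of 8 and 6 in starved and 5 and 6 in normal lists. A missing peak means that the site did not pass the caller's threshold in that list, not that it was measured as unbound.

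Of the 10 COMMD genes, 5 had a peak in at least 1 list, namely Commd2, Commd3, Commd4, Commd8 and Commd9, against a background of 10.5% of protein-coding genes. In both starved lists 2 of 10 were called, Commd8 and Commd9 (background 2.48%). In both normal lists all 5 were called (background 4.08%). The same 2 genes, Commd8 and Commd9, were called in all 4 lists (background 1.35%), and 3 were called in both normal lists and no starved list (background 2.33%). No COMMD gene was called in both starved lists and no normal list (background 0.946%). All 14 peaks lay at gene ends, where the backgrounds without gene bodies were 1.78% for both starved lists, 2.19% for both normal lists and 1.13% for all 4 lists. These shares are given for scale only, since the same calls brought the family into view. For each of the 5 genes the 2 lists of a condition gave the same call.

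**Figure D1:**
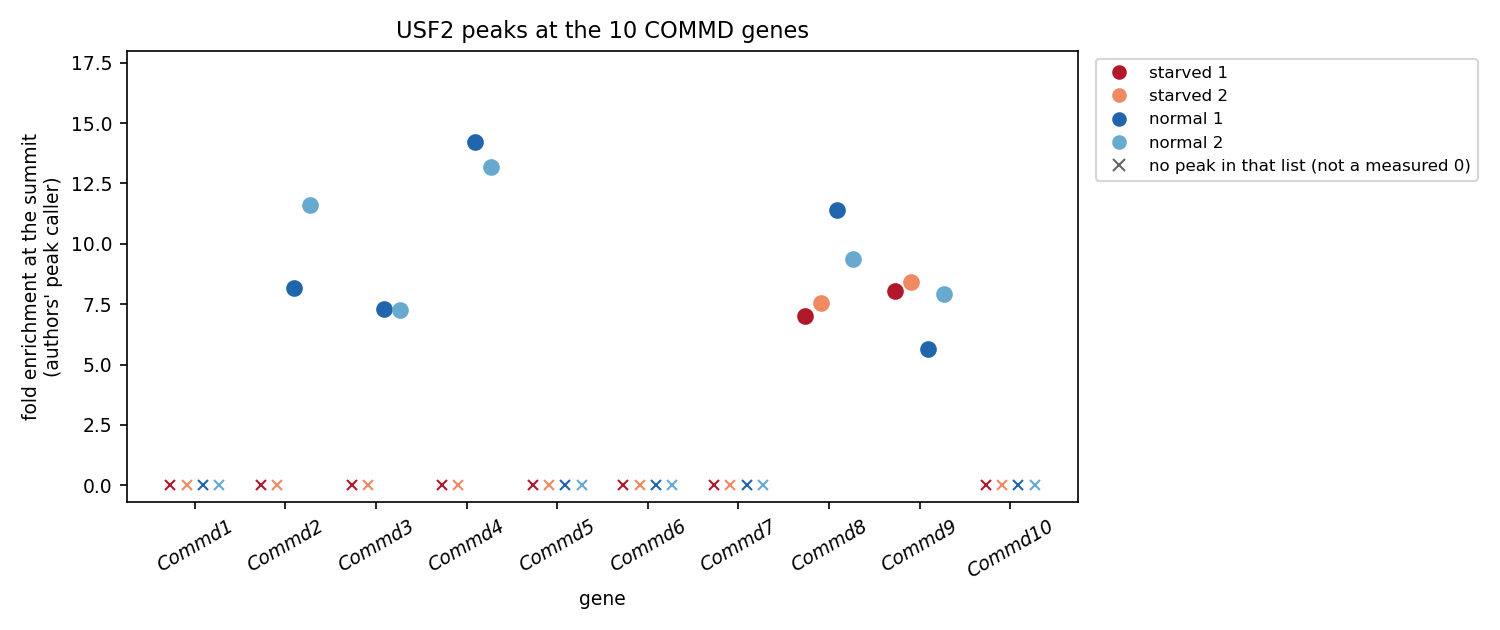
Fold enrichment at the summit (vertical axis, ratio over local background from the authors' peak caller) for each COMMD gene in the 2 starved and 2 normal lists, with 1 point per peak and a cross where a list had no peak. Commd8 and Commd9 have points in all 4 lists, between 5.65 and 11.4, and Commd4 has the highest points, 14.2 and 13.2, in the normal lists alone.

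The reference sequences at these sites show where the E-box core stands relative to the peaks. The stretches are from RefSeq (GRCm38.p6), 120 bases each, read 5′ to 3′ along the strand of the gene. Capitals mark CACGTG, which reads the same on both strands. Positions are counted from the annotated start base, which is 0, and negative values lie upstream. Commd8 and Commd9 are shown because they were called in all 4 lists, and Ccdc22, a scaffold of the same complex, because it was called in the starved lists. The Commd8 stretch is chr5:72168140-72168259 (minus strand), the Commd9 stretch chr2:101886192-101886311 (plus strand) and the Ccdc22 stretch chrX:7605371-7605490 (minus strand), each covering positions -70 to 49.
Commd8: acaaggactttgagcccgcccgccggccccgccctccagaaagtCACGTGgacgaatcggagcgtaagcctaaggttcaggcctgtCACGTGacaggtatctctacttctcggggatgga
Commd9: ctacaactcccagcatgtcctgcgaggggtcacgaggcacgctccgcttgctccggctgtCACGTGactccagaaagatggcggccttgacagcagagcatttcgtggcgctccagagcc
Ccdc22: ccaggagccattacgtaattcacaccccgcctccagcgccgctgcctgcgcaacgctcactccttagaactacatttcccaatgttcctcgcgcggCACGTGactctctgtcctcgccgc

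Commd3 and Bmi1 are shown because the peaks counted for Commd3 lie at the start of its neighbour Bmi1. Commd4 is shown because it had the strongest COMMD peak of each normal list and no CACGTG in the 300 bp searched around its start. The Commd3 stretch is chr2:18672365-18672484 (plus strand, positions -70 to 49) and the Bmi1 stretch chr2:18676768-18676887 (plus strand, positions -250 to -131). The Commd4 stretch is chr9:57158250-57158369 (minus strand, positions -70 to 49), and its capitals mark the looser E-box form CANNTG instead.
Commd3: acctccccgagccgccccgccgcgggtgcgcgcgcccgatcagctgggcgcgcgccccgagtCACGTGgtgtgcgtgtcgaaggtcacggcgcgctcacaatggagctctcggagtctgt
Bmi1: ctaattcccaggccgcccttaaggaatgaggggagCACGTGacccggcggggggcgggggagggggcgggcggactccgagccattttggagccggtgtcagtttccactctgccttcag
Commd4: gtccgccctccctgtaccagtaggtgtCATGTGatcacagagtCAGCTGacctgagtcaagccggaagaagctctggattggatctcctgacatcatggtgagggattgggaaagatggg

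Commd8 encodes a COMMD protein that, in mouse B cells, works with COMMD3 in chemotactic receptor signalling. It carried a USF2 peak at its start in every list (chr5:72167943-72168478, all 4 peaks merged). The fold enrichment, the reads at the summit plus 1 over the local background plus 1, was 7.01 in starved 1 and 7.56 in starved 2, against 11.4 in normal 1 and 9.36 in normal 2. The −log10 q was 8.95 and 10.3 in the starved lists, against 14.6 and 10.4 in the normal lists. By fold the peak ranked 229th and 209th in the starved lists, against 99th and 209th in the normal lists. As a share of list length this was 27.8% and 17.6% in starved and 6.02% and 9.84% in normal lists, which places Commd8 in the upper part of each list. Folds and ranks of lists of different background, width and length do not show a change in binding.

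The reads behind these values were few. The summit of Commd8 carried 19 reads (95% exact Poisson interval 11.4 to 29.7) and 20 reads (12.2 to 30.9) in the starved lists, against 16 (9.15 to 26.0) and 13 (6.92 to 22.2) in the normal lists. The local background was 1.85 and 1.78 reads in starved and 0.496 in both normal lists. Reads were counted over different widths in the 2 conditions, so these numbers are set side by side and not compared. The intervals cover counting error only.

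The Commd8 start held 2 copies of CACGTG, with first bases at positions -26 and 16, and all 4 peaks contained both. With their flanks the copies read GTCACGTGGA and GTCACGTGAC. The summit lay at position 82 in starved 1 and -18 in starved 2, against -26 in normal 1 and -43 in normal 2. Its distance to the nearer copy was 61 and 3 bp in the starved lists, against 0 and 17 bp in the normal lists. The starved 1 summit lay downstream of both copies, and the other 3 summits were at or beside the upstream copy. No other annotated gene had an end within 5000 bp of these summits. Both normal peaks began at the same base, while their ends differed by 170 bp.

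Commd9, whose protein takes part in the endosomal recycling of Notch and lipoprotein receptors, was the other member called throughout (chr2:101886105-101886462). Its fold enrichment was 8.03 and 8.42 in starved 1 and 2, against 5.65 and 7.93 in normal 1 and 2. The −log10 q was 7.78 and 8.66 in the starved lists, against 3.41 and 8.60 in the normal lists. The fold rank was 167 and 158 in the starved lists, against 561 and 347 in the normal lists, or 20.2% and 13.3% against 34.1% and 16.3% of list length. In normal 1 it was the last of the 5 COMMD peaks by fold and by −log10 q, and no other COMMD peak had a −log10 q below 5. The summits carried 11 and 12 reads in starved and 8 reads in both normal lists, over backgrounds of 0.494 and 0.544 in starved and 0.593 and 0.135 in normal lists. With 8 reads the exact interval ran from 3.45 to 15.8. The 2 normal lists had the same number of reads and different backgrounds at this gene.

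The start of Commd9 held a single CACGTG at position -10, within the sequence GTCACGTGAC, and all 4 peaks contained it. The summits lay at 88 and -11 in starved lists, against -74 and -10 in normal lists, so that they were 93 and 1 bp from the motif in starved 1 and 2 and 64 and 0 bp in normal 1 and 2. At Commd9 the replicates labelled 2 had their summits at the motif in both conditions, and the replicates labelled 1 did not. At Commd8 the replicate labelled 2 was the nearer in the starved lists and the farther in the normal lists. Both starved peaks began at the same base. The nearest other gene end, that of Prr5l, was at least 3136 bp away.

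**Figure D2:**
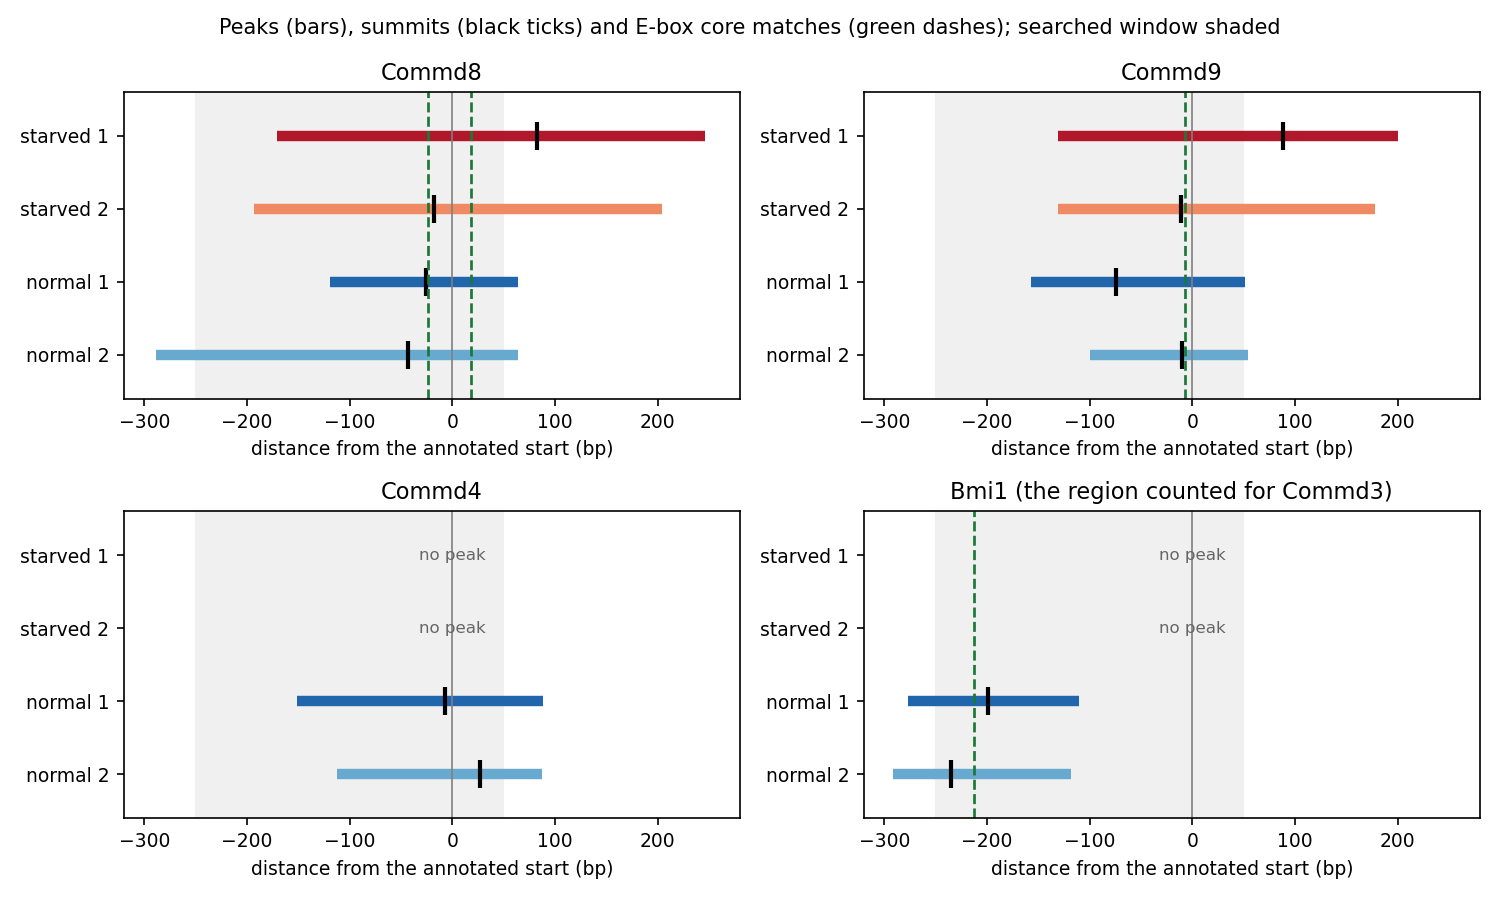
Peak extents (bars), summits (black ticks) and CACGTG matches (green dashes) by distance from the annotated start in bp, with the starved lists above the normal lists and the 300 bp window searched for motifs shaded. Commd8 and Commd9 have peaks over their motifs in all 4 lists, and Commd4 has peaks and no motif in the searched window. The region counted for Commd3 lies over a motif at position -215 of Bmi1.

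Commd4 had the strongest COMMD peak in each normal list and none in the starved lists (chr9:57158211-57158450). No peak lay within 1000 bp in either starved list, where the nearest summits were 24113 and 24221 bp from the gene, against a fold enrichment of 14.2 and 13.2 in normal 1 and 2. There the −log10 q was 20.7 and 19.2, the fold rank 51 and 68, and the share of list length 3.10% and 3.20%. The summits carried 19 reads (11.4 to 29.7) and 20 reads (12.2 to 30.9) over backgrounds of 0.406 and 0.594. They lay at positions -7 and 27, and the 2 peaks began 1 bp apart. The start counted as 0 lies inside the annotated gene. Both summits were inside the gene too, 43 and 77 bp from its end with the higher coordinate. No other gene had an end within 5000 bp.

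A call under normal culture was often accompanied by one under starvation, and Commd4 was among the exceptions. There were 480 protein-coding genes with a gene-end peak in both normal lists. At least 1 starved list also called 62.9% of them, and 2 of the 5 COMMD genes. A starved call counted here at either gene end or anywhere inside the gene, so it need not be the same site. Of the 62 genes whose smaller normal fold reached that of Commd4, 93.5% were also called in a starved list. The remaining 4 were Commd4, Camk2d (13.8 and 13.2 in normal 1 and 2), 5730455P16Rik (19.8 and 20.6) and Rad54l2 (16.9 and 17.8). These figures describe the lists by values that also chose Commd4, and support nothing about it.

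The promoter window of Commd4, from 250 bases before to 50 bases after the start, held no CACGTG. It held 3 matches to the looser form. The first was CAATTG at position -88, the next CATGTG at -43, and the last was CAGCTG at -27, which lay 15 and 49 bp from the 2 summits. The bases of the peaks beyond the window were not searched. Among all 32851 RefSeq promoter windows of this length, 7.15% held CACGTG. The share was 87.0% and 85.5% among windows with a summit of starved 1 and 2, against 69.1% and 64.1% among those with a summit of normal 1 and 2. It was 92.0% of 150 windows with summits in all 4 lists and 45.0% of 140 windows with summits in both normal lists and no starved list. For these 2 sets a summit had to lie inside the window, a narrower rule than that of the calls above. Commd8 and Commd9 are in neither set, as their starved 1 summits, at positions 82 and 88, lay beyond the window. The longer form GTCACGTG, on either strand, was in 77.3% and 35.7% of these 2 sets and in 2.25% of all windows, and the starts of Commd3, Commd8, Commd9 and Ccdc22 and the Bmi1 window held it. Commd8 and Commd9 had the core and calls in all 4 lists, whereas Commd4 had neither. Other sites did not follow this pattern. The Bmi1 window, where the Commd3 peaks lie, held the core and was called in the normal lists alone. Ccdc22 held the core and was called in the starved lists alone, and the sequence at Commd2 was not searched. Whether the core bears on the calls was not tested. A match is a description of the sequence and does not show that USF2 sits on it.

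**Figure D3:**
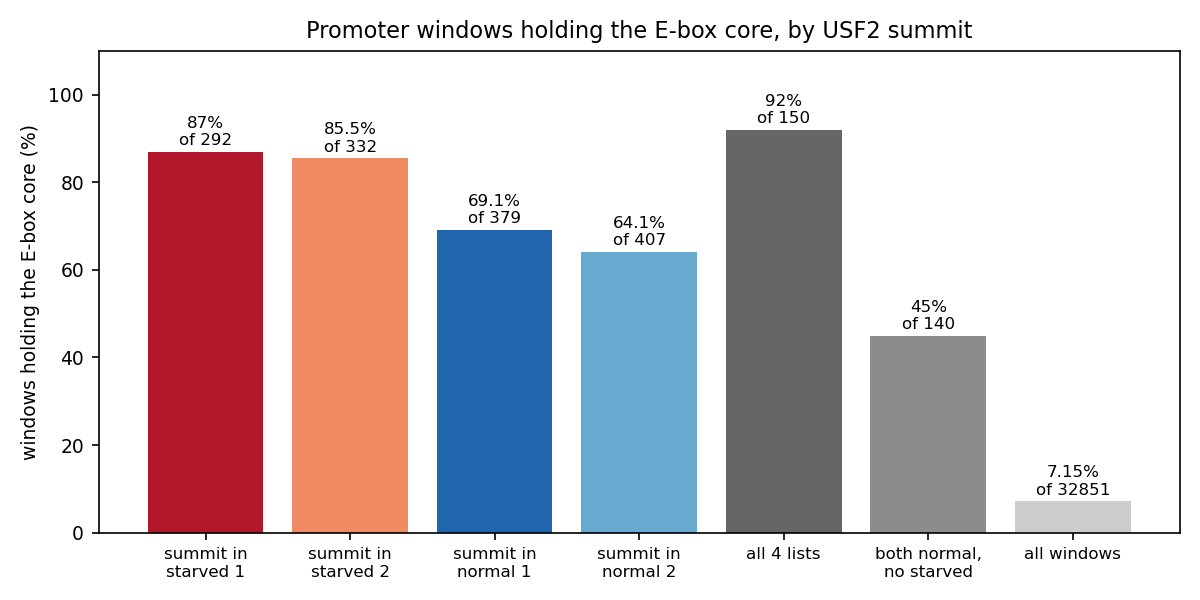
Share of RefSeq promoter windows that hold CACGTG (vertical axis, percent, from 0), by the lists that have a USF2 summit in the window, with the number of windows above each bar. The share is 92.0% where all 4 lists have a summit, 45.0% where only the 2 normal lists do, and 7.15% over all windows.

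Commd2 was the second member found in normal lists alone, at the gene end with the higher coordinate (chr3:57651617-57651842). The nearest starved summits were 6313174 and 3241124 bp away, against a fold enrichment of 8.16 in normal 1 and 11.6 in normal 2. The −log10 q was 8.02 and 14.8 and the fold rank 231 and 106, or 14.0% and 4.99% of list length. The reads at the summit were close, 12 (6.20 to 21.0) and 14 (7.65 to 23.5), and the backgrounds were 0.593 and 0.297. The summits lay 78 and 35 bp outside the gene, and no other gene end was within 5000 bp. Its promoter sequence was not analysed here.

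For Commd3, partner of COMMD8 in the B-cell complex named above, the rule picked up a region that also belongs to another gene. No starved list had a peak there, and the nearest starved summits were 354731 and 6252492 bp away. The normal lists gave folds of 7.28 and 7.25 (chr2:18676726-18676908), with −log10 q of 6.15 and 6.28, ranks of 322 and 466, or 19.6% and 21.9% of list length, and 9 reads in each. The summits lay 588 and 552 bp beyond the downstream end of Commd3 and 4384 and 4348 bp from its start. They lay only 199 and 235 bp upstream of the start of Bmi1, which encodes a subunit of Polycomb repressive complex 1. A CACGTG at position -215 from the Bmi1 start was 11 and 20 bp from the summits, and both peaks contained it. The summits were thus inside the Bmi1 promoter window, and Commd3 had no peak at its own start in any list.

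The start of Commd3 itself held a CACGTG at position -8, in the sequence GTCACGTGGT. Of 2349 promoter windows with the core, 17.2% had a summit in any list, against 0.616% of 30502 windows without it. A core without a call was therefore the common case in these lists.

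The other 5 members, Commd1, Commd5, Commd6, Commd7 and Commd10, had no peak in any list. Commd1, which acts in copper export and in the turnover of NF-κB subunits, had its nearest summits between 236 and 5870 kb away over the 4 lists. For Commd5, known as a hypertension-related, calcium-regulated gene, they were 19.8 to 47.2 kb away, for Commd6 36.6 to 20500 kb, for Commd7 108 to 424 kb and for Commd10 134 to 4730 kb. Between the farthest summit inside the limit, 588 bp at Commd3, and the nearest outside it, 19783 bp at Commd5 in normal 1 (fold 5.18), there was none, so the limit of 1000 bp was not close to any member's value. The windows of Commd6 and Commd7 and both windows of Commd1 held no CACGTG. Thus 3 of the 7 members with a promoter entry held the core, Commd3, Commd8 and Commd9. Over all RefSeq promoter windows the share was 7.15%, counted by window and not by gene. Gene length ranged from 1357 bp (Commd5) to 129177 bp (Commd10), and the longest member was among those without a peak.

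Within the lists the order of the members was not the same. In both starved lists Commd9 stood before Commd8 by fold, whereas by −log10 q Commd8 stood before Commd9. In both normal lists Commd4 came first by either measure. The others followed as Commd8, Commd2, Commd3 and Commd9 in normal 1 and as Commd2, Commd8, Commd9 and Commd3 in normal 2. The places of Commd2 and Commd8 and those of Commd3 and Commd9 were exchanged between these replicates, so within these 2 pairs the order does not go beyond the spread between lists.

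**Figure D4:**
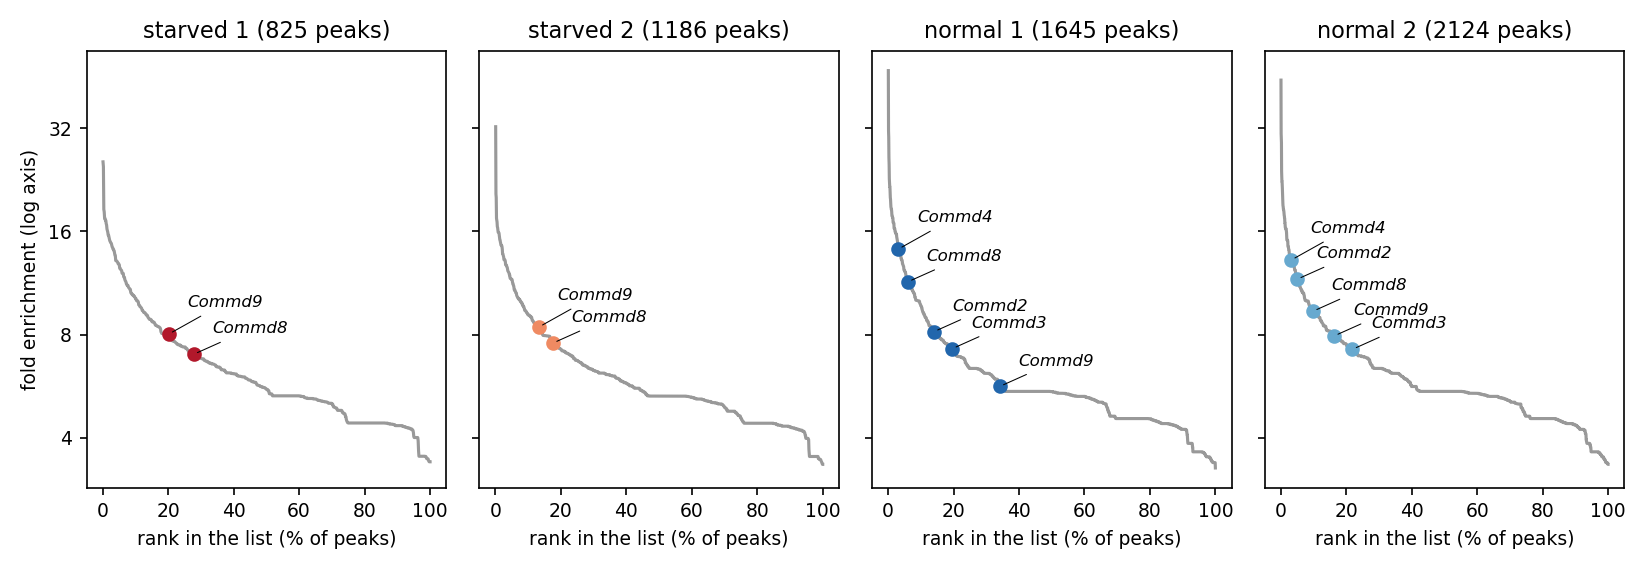
Fold enrichment (vertical log axis) of all peaks of each list by rank (horizontal axis, percent of the list), as a grey line, with the COMMD peaks as points, for the 2 starved lists and then the 2 normal lists. Commd4 stands at 3.10% and 3.20% of the normal lists, and Commd8 and Commd9 between 13.3% and 27.8% of the starved lists.

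The genes with the most similar ranks were taken from those with gene-end peaks in the same lists. Commd8 came closest to Naglu, a lysosomal glycosidase, with a mean difference of 2.07 percentage points of rank over 4 lists, then to Zfp207 (3.05) and Ldhd (3.28), among 246 other genes called in all 4 lists. Commd9 came closest to Kat6a, a histone acetyltransferase (2.77). Over the 2 normal lists, among 183 other genes with the same calls, Commd4 came closest to Camk2d, a calcium-dependent kinase (0.344), Fra10ac1 (0.660) and the lysosomal cystine transporter gene Ctns (1.17). Commd2 came closest to Gga2, a trans-Golgi sorting adaptor (1.81), Sf3a3 (1.92) and Fam171b (2.12). Bmi1 matched Commd3 exactly, as both count the same peaks, and Mccc2 (1.62) and Rlf (1.73) followed. Likeness in rank was a sorting rule and says nothing of function.

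Of the 6 partner genes of Commander, 1 had a peak in any list (16.7%, background 10.5%). This was Ccdc22, called in both starved lists and no normal list (background 0.946%), and Ccdc93, Dennd10, Vps35l, Vps26c and Vps29 had none. Ccdc22 had a fold enrichment of 6.44 and 6.81 in starved 1 and 2, with −log10 q of 5.23 and 5.84, ranks of 289 and 284 and 11 reads in each. Its summits lay at positions 28 and 57, and its CACGTG at 26 was 0 and 26 bp away. The call pattern of this scaffold gene was the reverse of that of Commd2, Commd3 and Commd4. None of the 10 COMMD genes had it.

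Of 14 linked endosomal sorting genes, 5 were called in both starved lists (background 2.48%), 6 in both normal lists (background 4.08%) and 4 in all 4 lists (background 1.35%). These 4 were the retromer subunit Vps26a (5.09 and 7.38 in starved, 16.1 and 13.4 in normal lists) and the WASH complex genes Washc2, Washc4 and Washc5. Washc2, whose product ties the actin-nucleating WASH complex to retromer, had folds of 16.9 and 17.0 in starved and 25.1 and 17.5 in normal lists, above every COMMD peak of the same list. Washc5 had 15.6 and 17.5 in starved and 20.7 and 18.6 in normal lists, and Washc4 had 8.05 and 7.13 in starved and 6.28 in both normal lists. Washc1 was called in starved 2 (6.73) and in both normal lists (6.90 and 5.65), and the retromer gene Vps35 in the normal lists alone (6.44 in both). Capzb, encoding an actin-capping subunit, had a peak inside the gene in both starved lists (6.16 and 6.45), 21298 and 21342 bp from an end, and Snx31 one inside the gene in normal 1 (6.37). Snx17, Snx27, Vps26b, Washc3, Capza1 and Capza2 had no peak.

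Of 8 cargo genes of the pathway, 1 had a peak in any list (12.5%), a share near the background of 10.5%. Among those reported here, Lrp1, an endocytic receptor, had a weak peak inside the gene in starved 2 alone (fold 5.04), and Atp7a, Atp7b, Itgb1, Cftr, Scnn1a and Lrp2 had none. Of 11 genes for NF-κB and ubiquitin partners of COMMD1, 2 had a peak in any list (18.2%, background 10.5%). Cul5, a cullin scaffold of ubiquitin ligases, was called in all 4 lists (background 1.35%), with folds of 6.55 and 7.94 in starved and 4.57 and 6.35 in normal lists. Relb, an NF-κB subunit, had a peak in starved 2 alone (4.78). The remaining 9 had none, among them Rela and Cul2, whose products COMMD1 is known to bring together.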

How the data were processed

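USF2 was profiled by ChIP-seq in 4 of the 12 samples of the series. The inputs and the H3K27ac samples were not analysed here. GRCm38, MACS2 2.2.7.1, Bowtie2 2.5.1 and deepTools 3.5.1 stand in the submitters' processing notes, without parameters, and use of the inputs in peak calling is not stated there. The deposited lists are 1 per library and were not pooled. The deposited fold enrichment is a ratio that the authors' software gave for each peak. It also gave the deposited −log10 of p and of q, and the deposited score, which was not used further. Folds are ranked within a list, and values of different lists stand side by side without a fold change between them. Coordinates are 1-based GRCm38 positions.

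Genes and promoter windows came from RefSeq tables of GRCm38.p6. Strand was known for the 7 members with a promoter entry, and exons were not used. Reads at a summit and the background were recovered as the whole number k for which fold (k + 1)/(background + 1) and the Poisson tail match the deposited values, within 0.000265 on the −log10 scale for every peak. Intervals are 95% exact Poisson intervals. Motifs CACGTG and CANNTG were searched on both strands, and CACGTG matches overlap CANNTG. Peak assignment and read recovery were checked on simulated peaks. Python 3.11.15, pandas 2.3.3 and scipy 1.17.1 were used.

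All 10 members are reported, with every partner gene called in at least 1 list, every gene with an end within 1000 bp of a member's summit, and the 3 genes nearest in rank, except that some cargo genes and genes near Commd9 in rank are not reported here. Members and lists were chosen with earlier results of these data known. No test was run on them. Alternatives were other distances, overlap in place of summits, stricter or equal-length lists, gene ends alone, and each library left out.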

Additional observations from a re-analysis of the deposited data

How the results depend on the processing

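The number of COMMD genes called in both starved lists was 2 under every alternative that touches those lists. The number called in both normal lists lay between 4 and 5 under the alternatives fixed at the start. It was 4 within 500 bp of a gene end (without Commd3), with −log10 q of at least 5 and with every list cut by −log10 q to the length of the shortest, 825 peaks (both without Commd9). It was 3 when a summit had to lie within 1000 bp of an annotated transcript start, an alternative added after seeing the data. That setting leaves out Commd3 and also Commd2, whose start was not used here. A second added alternative, giving each peak to the gene with the nearest end, left 4, without Commd3. The number called in all 4 lists was 1, Commd8 alone, with −log10 q of at least 5 and with lists of equal length. The Commd9 peak of normal 1 is then lost, as it ranks 974th by −log10 q, while by fold it ranks 561st. Leaving out each library in turn gave 2 genes for the starved lists, 5 for the normal lists and 2 for all lists, and the same genes. The 2 lists of a condition gave the same call for every member, so this outcome was fixed in advance and shows no stability. A library left out of one condition cannot move the count of the other. Ordering the members by −log10 q moved 4 of 14 places, all in the starved lists. Ordering by percent of list length cannot change the order within a list. No paired analysis was possible because the results come from no test. Each COMMD summit carried 8 to 20 reads, which limits the precision of single values.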

Other observations

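There were 62 genes with a gene-end peak at least as strong as that of Commd4 in both normal lists. At least 1 starved list called 58 of them, at a gene end or inside the gene. For 46 of these a promoter window was at hand, whether or not the peak lay in it, and 36 (78.3%) held CACGTG. Of the 4 genes without a starved call, 3 had a window, Commd4 included, and 0 of the 3 held it. Commd4 is among these few genes, which were picked by their values, and the cause of the difference was not tested.

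The nearest peaks to Commd7 were 108 kb away in both starved lists and reached folds of 14.6 and 12.0. The nearest starved peaks to Commd4, about 24 kb away, had folds of 8.36 and 6.61 in starved 1 and 2.

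Within promoter windows holding CACGTG, the median distance from a summit to the nearest core was 15.0 and 20.5 bp in starved 1 and 2, against 10.5 and 9.0 bp in normal 1 and 2. The starved summits of Commd8 and Commd9 in replicate 1, at 61 and 93 bp, lay outside the window and so are not part of that median. Peak widths also differed with the condition, so these medians do not show a difference in binding.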
